A study of Mus musculus with 12 samples.

Results

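The citric acid cycle genes described here, together with the genes that bring pyruvate and amino acid carbon into the cycle, form a list of 34 genes out of 19437 genes on the array. The list was drawn from textbook pathway membership, and a gene was found by the symbol that the platform annotation gives its probes. It holds 7 genes of pyruvate entry, 13 genes of the cycle itself, 5 genes of the transaminases and of the malate-aspartate shuttle, 6 kinases and phosphatases of pyruvate dehydrogenase, and 3 cytosolic enzymes. Of the 34 genes, 32 had a named probe and all 32 were tested. No probe was found for Mpc2, the partner of Mpc1 in the mitochondrial pyruvate carrier, nor for Pdp2, a pyruvate dehydrogenase phosphatase.

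The cycle oxidises acetyl-CoA in the mitochondrial matrix and hands the electrons to the respiratory chain as NADH and reduced flavin. Pyruvate enters through the mitochondrial pyruvate carrier and the pyruvate dehydrogenase complex, which kinases switch off and phosphatases switch on, while transaminases exchange cycle intermediates with amino acids. In muscle the cycle meets the energy demand of contraction, and PGC-1alpha and PGC-1beta are coactivators known to raise the transcription of its genes through partners such as the estrogen-related receptors.

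RNA came from gastrocnemius, a calf muscle, of male mice aged 12 weeks on a C57BL6/J x sv129 background. The reference genotype was PGC-1beta f/f, which carries a floxed PGC-1beta gene and no Cre. The knockouts were PGC-1alpha -/- (alpha knockout), PGC-1betaf/f/Mlc1fCre (beta knockout) and PGC-1alpha-/- beta f/f/Mlc1fCre (double knockout). Each of 12 arrays compared the RNA of a knockout, in the Cy5 dye, with reference RNA in the Cy3 dye. The dyes were never exchanged, so that a dye effect and a knockout effect cannot be told apart on 1 array or in the mean of 1 group. By title, 3 arrays each set the alpha, the beta and the double knockout against floxed muscle, and 3 set the double against the alpha knockout. In what follows these are the alpha arrays, the beta arrays, the double arrays and, for the last kind, the direct arrays, each with the replicate number of its title. Mlc1f is a myosin light chain promoter that drives Cre in muscle fibres, so other cells of the muscle keep PGC-1beta, whereas PGC-1alpha is absent from all cells of the alpha and double knockouts. The labels do not say whether an array holds 1 mouse or a pool, so the tests measure only the spread between arrays. In whole muscle, fewer cells of a type and less RNA per cell cannot be told apart.

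The promoters of Got1, Got2 and Glud1 are shown because these genes of glutamate and aspartate exchange passed the test on the direct arrays and had the lowest group means among the transaminase and shuttle genes there. Each sequence is the 250 bases before the annotated start, from RefSeq on GRCm38.p6, written in the direction of the gene. Capitals mark AAGGTCA, the core of the estrogen-related receptor motif, or CCGGAAG, the core of the GABPA motif, on either strand.
Got1 promoter, chr19:43524606-43524855, minus strand: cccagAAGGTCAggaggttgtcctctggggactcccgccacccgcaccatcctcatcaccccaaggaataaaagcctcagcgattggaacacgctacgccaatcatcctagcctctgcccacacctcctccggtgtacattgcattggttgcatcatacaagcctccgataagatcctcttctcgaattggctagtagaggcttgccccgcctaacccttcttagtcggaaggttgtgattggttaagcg
Got2 promoter, chr8:95888402-95888651, minus strand: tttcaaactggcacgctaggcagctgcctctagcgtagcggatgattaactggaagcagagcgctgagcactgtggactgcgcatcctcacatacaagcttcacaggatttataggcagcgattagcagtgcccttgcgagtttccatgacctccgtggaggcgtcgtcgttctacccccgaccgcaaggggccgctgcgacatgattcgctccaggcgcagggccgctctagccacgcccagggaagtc
Glud1 promoter, chr14:34310477-34310726, plus strand: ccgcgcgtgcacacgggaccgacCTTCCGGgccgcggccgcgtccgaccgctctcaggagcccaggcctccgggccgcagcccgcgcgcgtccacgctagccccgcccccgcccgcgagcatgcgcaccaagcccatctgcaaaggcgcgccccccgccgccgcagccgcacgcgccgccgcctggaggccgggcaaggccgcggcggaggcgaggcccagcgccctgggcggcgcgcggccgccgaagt
AAGGTCA began 245 bases before the start of Got1, and CCGGAAG lay on the reverse strand 227 bases before the start of Glud1. Neither motif was found in the Got2 window. Promoter windows of 300 bases, which add 50 bases after the start, were available for 32 of the 34 genes and not for Idh3a and Pdp1. AAGGTCA was in 2 of the 32 windows, those of Got1 and Ogdh (6.25%, against 5.38% of 27025 genes). CCGGAAG was in 5, those of Dlst, Glud1, Idh3b, Idh3g and Mpc1 (15.6%, against 9.93%). The extended receptor motif TNAAGGTCA was in none of the 32 and in 1.43% of all genes, and the NRF1 consensus, which has ambiguous letters, was in none and in 1.41%. The motifs do not overlap each other except that TNAAGGTCA contains AAGGTCA. A match is a description of these letters only.

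The values are log2 ratios of the knockout over its reference, centred so that 0 is the median gene of the array, and "log2" below always means this difference. Channel labels and titles named different knockouts on 6 of the 12 arrays: by the channel labels every array numbered 1 against floxed RNA held the alpha, every array numbered 2 the beta and every array numbered 3 the double knockout. Groups follow the titles, because the authors' deposited mean ratios equal the means of the arrays grouped by title within 0.006 for 100% of probes, for the beta group without beta 3. Beta 3 was therefore left out of the fit. Of its probes 27.6% had no defined ratio, and the correlation of its log2 ratios with beta 1, of the same title, was -0.44. Direct 3 and double 3, both kept in the fit, had no defined ratio for 23.7% and 21.5% of probes, and the other arrays for 15.1% or less. Beta 3 correlated at 0.42 with double 3, whose channel label is the same. Double 1 correlated at 0.50 with alpha 1, of the same channel label, and at 0.46 with beta 1, but at 0.10 with double 2 and -0.17 with double 3, of the same title. Double 3 correlated at -0.32 with alpha 1 and at -0.31 with beta 1. Beta 1 correlated at 0.61 with alpha 1, of the same channel label, and at 0.34 with beta 2, of the same title. Beta 1, beta 3 and double 1 thus each had their highest correlation with an array of their channel label. Alpha 3 went with its title, at 0.55 with alpha 1 and at -0.12 with double 3, of its channel label. Alpha 2 was at 0.43 with alpha 1 and 0.49 with alpha 3, of its title, and at 0.39 with beta 2, of its channel label. Double 2 was at 0.17 with double 3, of its title, and at 0.10 with beta 2, of its channel label. Direct 3, with another reference, correlated at 0.45 with double 3 and at 0.42 with beta 3. Against floxed RNA the channel label follows the replicate number, so a likeness by label and one by number cannot be told apart. Each result on the beta and double groups therefore rests on the titles. The directions were kept as the dyes give them.

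Ppargc1a, which encodes PGC-1alpha, was lower on the alpha arrays by a log2 of -1.57 (limma, adjusted p = 0.0264), with -1.17, -2.41 and -1.13. The double arrays gave it -0.53, -1.95 and -1.43 (adjusted p = 0.137). On the beta arrays Ppargc1a was at 0.26, -0.35 and, for beta 3, -1.55. Beta 1, an alpha knockout by its channel label, was thus above every alpha array for this gene. Ppargc1b, which encodes PGC-1beta, was not lower on the beta arrays, where it was at 0.95 and 1.03 (adjusted p = 0.329), and it rose on the alpha arrays by 1.35 (adjusted p = 0.0391). Its double values were 0.69, 0.30 and -0.09, and its direct values -0.22, -1.50 and -2.10 (adjusted p = 0.0503). The titles of the beta and double arrays were thus not borne out by Ppargc1b, and whether its probe lies in the deleted exons is not known here. Every statement below about PGC-1beta therefore follows the titles. Skeletal muscle markers such as Acta1, a thin-filament actin, and Myh4, a fast myosin, had a defined ratio on all arrays; a ratio does not give their level.

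In the mean over the arrays titled for loss of both coactivators, most genes of the cycle and of pyruvate entry lay below the median gene, and in the means over those titled for loss of 1 coactivator most lay above it. On single arrays this did not always hold: 18 of 32 genes were above 0 on double 1, 17 of 32 on alpha 2 and 16 of 32 on beta 2. Against floxed muscle, 28 of the 32 genes tested had a mean below 0 on the double arrays, with a median log2 of -0.74. On the alpha arrays 24 of 32 were above 0, with a median of 0.54, and on the beta arrays 22 of 32, with a median of 0.44. Without floxed RNA, on the direct arrays, 28 of 32 were again below 0, with a median of -0.67. Over all 16526 genes tested, the medians of these comparisons were between -0.07 and 0.04.

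**Figure D1:**
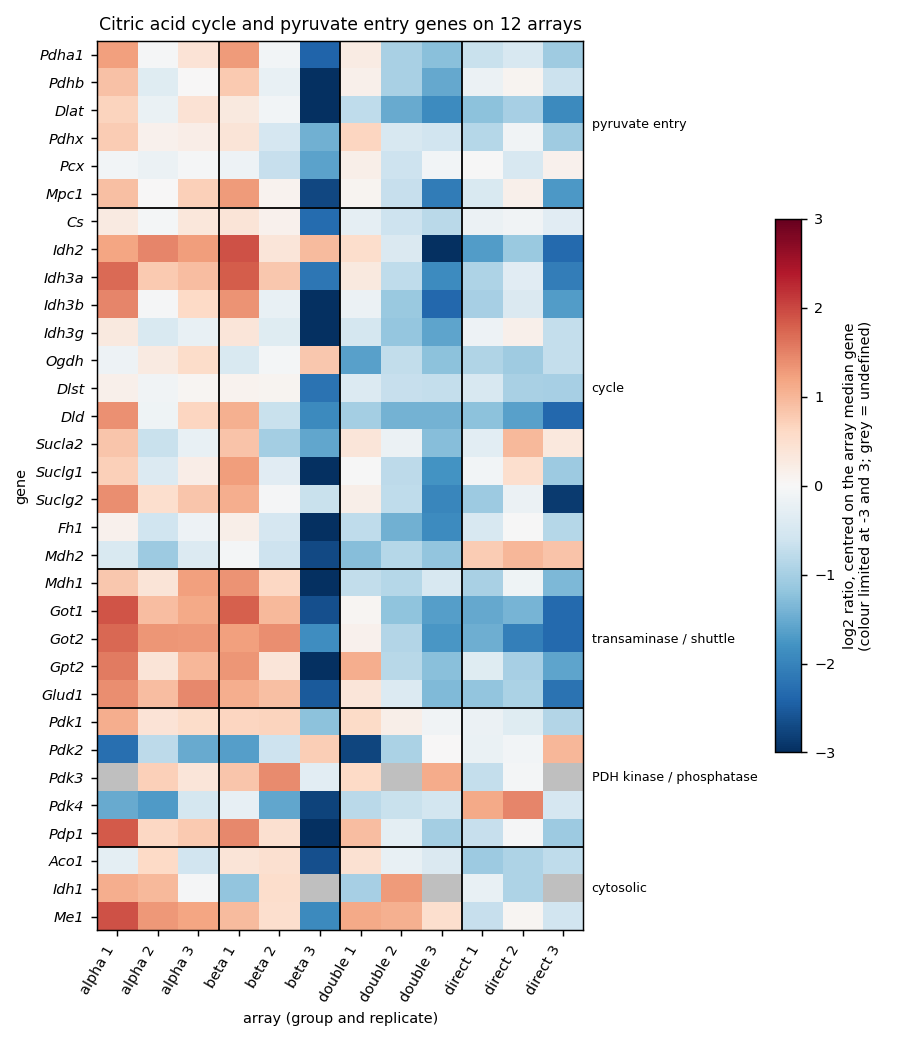
Centred log2 ratio of each gene (one line of cells per gene, by role) on each of the 12 arrays (columns, by title group and replicate), with blue below and red above the array's median gene and grey for undefined values. Double 2 and double 3 are blue for 28 of 31 genes each, alpha 1 and beta 1 are mainly red, and beta 3, left out of the fit, is dark blue with a median of -2.40.

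The shift was not even across arrays of a group. The median of the genes was 0.88, 0.08 and 0.42 on the 3 alpha arrays and 0.85 and 0.02 on beta 1 and beta 2. It was 0.11, -0.76 and -1.26 on the double arrays and -0.67, -0.26 and -1.07 on the direct arrays. Double 1 thus lay above 0, within the range of the alpha and beta arrays, while double 2 and double 3 lay below every alpha and beta array of the fit. Genes with a clearly measured ratio on all 12 arrays, called bright genes here (3304 genes, 17 of them on the list), also shifted between arrays. Their median was 0.66, 0.20 and 0.36 on the alpha arrays, 0.44, 0.02 and -0.37 on the double arrays and -0.04, 0.04 and -0.54 on the direct arrays. On beta 1 and beta 2 it was 0.55 and 0.15. The median of the cycle and pyruvate-entry genes was below that of the bright genes on all double and direct arrays, on alpha 2 and on beta 2, and above it on alpha 1, alpha 3 and beta 1. Of the bright genes on the list, 16 of 17 (94.12%) had a double mean below 0, against 48.24% of all bright genes, and the direct shares were 94.12% and 61.53%. The part of signal brightness in the alpha and beta shifts was not tested beyond these values.

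**Figure D2:**
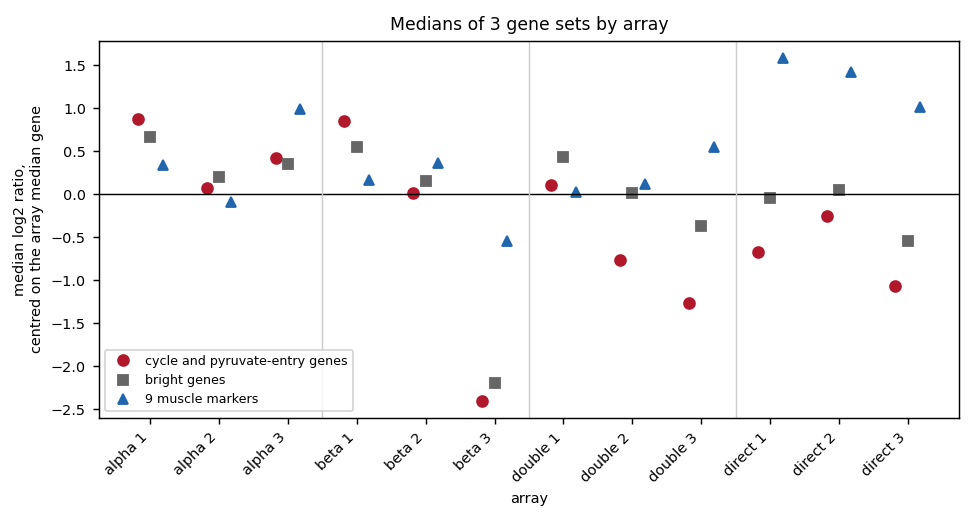
Median centred log2 ratio per array of the 32 measured genes of the list (red circles), of 3304 bright genes (grey squares) and of 9 muscle markers (blue triangles). The red circles are below the grey squares on all double and direct arrays, and the muscle markers are at 1.58, 1.42 and 1.01 on the direct arrays, where without probes at the array's scaling factor they would be at 0.31, -0.11 and 1.01.

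On the arrays titled for loss of PGC-1alpha alone, 2 of the 32 genes were higher and none lower at an adjusted p under 0.05 over all genes. In this comparison 7.81% of all genes tested passed, and 5.59% of all genes tested passed upward, so the share of the list is near the background. The 2 genes were Got2, the mitochondrial aspartate aminotransferase, and Me1, the cytosolic malic enzyme. At an unadjusted p under 0.05, 8 genes were higher (16.9% of all genes were) and 3 were lower (9.22%). Centred on the bright genes instead, Got2 and Me1 rose and Mdh2 and Pdk4 fell, and the split over all genes went from 924 higher and 366 lower to 488 higher and 758 lower. With the replicate number as a block, 5 passed, where 12.4% of all genes did: Got1, Got2, Me1 and Glud1 rose and Pdk2 fell. Without the block, no gene passed when any of the 3 alpha arrays was left out, and 1 passed without beta 1 or without beta 2. With beta 3 kept, 0 passed, and 0.100% of all genes did. Red blood cell markers were above 0 for 4 of 4 genes on the alpha arrays, with medians of 0.60 to 1.93 per array, and 1 passed (Hba-a2, a haemoglobin chain). Of 9 muscle markers 2 passed upward (Acta1 and Mb), as did 1 of 5 fibroblast markers (Fmod), and their part in these values was not tested.

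The arrays titled for loss of PGC-1beta alone gave no call in limma for any of the 32 genes, and 0% of all genes were called with 2 arrays. At an unadjusted p under 0.05, 7 genes were higher, against 8.28% of all genes, and 0 were lower. The highest means were those of Got1, the cytosolic aspartate aminotransferase, at 1.38, of Idh3a, the catalytic subunit of NAD-dependent isocitrate dehydrogenase, at 1.31, and of Got2 at 1.31. The direction of this comparison rests on leaving out beta 3: with it the median of the list was -0.51, and by the channel labels it was -0.19.

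The arrays titled for loss of both coactivators gave no call for the 32 genes in limma, where 0.436% of all genes were called. At an unadjusted p under 0.05, 13 genes were lower, against 7.27% of all genes, and 2 were higher, against 5.54%. Ogdh, the first subunit of the 2-oxoglutarate dehydrogenase complex, came nearest (adjusted p = 0.0855), followed by Fh1, Mdh2 and Dlat (each 0.0896). Of the 30 genes with a value on all 3 double arrays, 12 (40.0%) were below 0 on every one, against 14.93% of all genes. The count of calls differed between settings, and the cause was not tested. With dim ratios left out, which leaves 11673 genes to test, Idh3g, Fh1, Mdh2 and Dlat were called lower, where 1.34% of genes were. Among bright genes alone, a setting chosen after seeing the data, 8 of 17 genes were lower (Cs, Idh3b, Idh3g, Fh1, Mdh2, Got1, Got2 and Dlat), where 5.48% of bright genes were, and Me1 was higher, where 4.57% were. By the channel labels the double group had a median of -0.42 and no call.

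The direct arrays compared the double with the alpha knockout, and by their titles asked what the added loss of PGC-1beta did. Here 5 of the 32 genes fell and none rose: Got2, Got1, Dlat, Dld and Glud1. In this comparison 6.38% of all genes were called, and 4.15% of all genes were called downward. At an unadjusted p under 0.05, 13 genes were lower, against 15.5% of all genes, and 1 was higher, against 10.2%. Of 30 genes with all values, 20 (66.67%) were below 0 on every direct array, against 28.21% of all genes. The 5 genes were below 0 on each of the direct arrays, but the calls depended on which arrays were in the fit. Of the list, 3 genes passed without direct 1, none without direct 2 or without direct 3, and 2 without alpha 3. These fits have fewer arrays, the share of all genes they called is not given, and the cause of the lost calls was not tested. None passed with beta 3 kept, where 0.0236% of all genes did. Without centring 60 genes in all were higher and 676 lower, against 369 and 686 with it, and 6 genes of the list were lower. Of 9 muscle markers 5 passed upward (Acta1, Myh4, Mylpf, Pvalb and Tnnt3), but some of the marker probes had a ratio equal to the scaling factor of the array, which equal signals of both dyes give, as saturated spots would. This held for 4 of 13 marker probes on direct 1 and 6 of 13 on direct 2, and the values of Myh4 and Mylpf there are this factor and no measured rise. With dim ratios left out, which removes such probes, Acta1 (1.86), Tnnt3 (1.37) and Pvalb (2.03) still passed upward and Myh4 and Mylpf could not be tested. The part of muscle markers in the fall of the other genes was not tested. Further, 1 of 6 endothelial and 1 of 5 fibroblast markers fell (Cldn5 by 2.04 and Fmod by 2.02 on the log2 scale).

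Through the floxed RNA, the double minus the alpha group was below 0 for 28 of 32 genes, with a median of -1.09, and the double minus the beta group for 28 of 32, with a median of -1.08. No gene of the list passed in limma in either, where 0.0121% and 0.00605% of all genes did. At an unadjusted p under 0.05, 16 and 13 genes were lower and 0 higher in either, against 8.07% and 4.13% of all genes lower. These comparisons share the double arrays and the floxed reference, and their values for the genes are given side by side below and not as a likeness. Got1 was at -2.25 and -2.32, and Got2 at -2.29 and -2.14. Idh2, the mitochondrial NADP-dependent isocitrate dehydrogenase, was at -2.40 and -2.23. With beta 3 kept, the median of the double minus the beta group was 0.035.

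**Figure D3:**
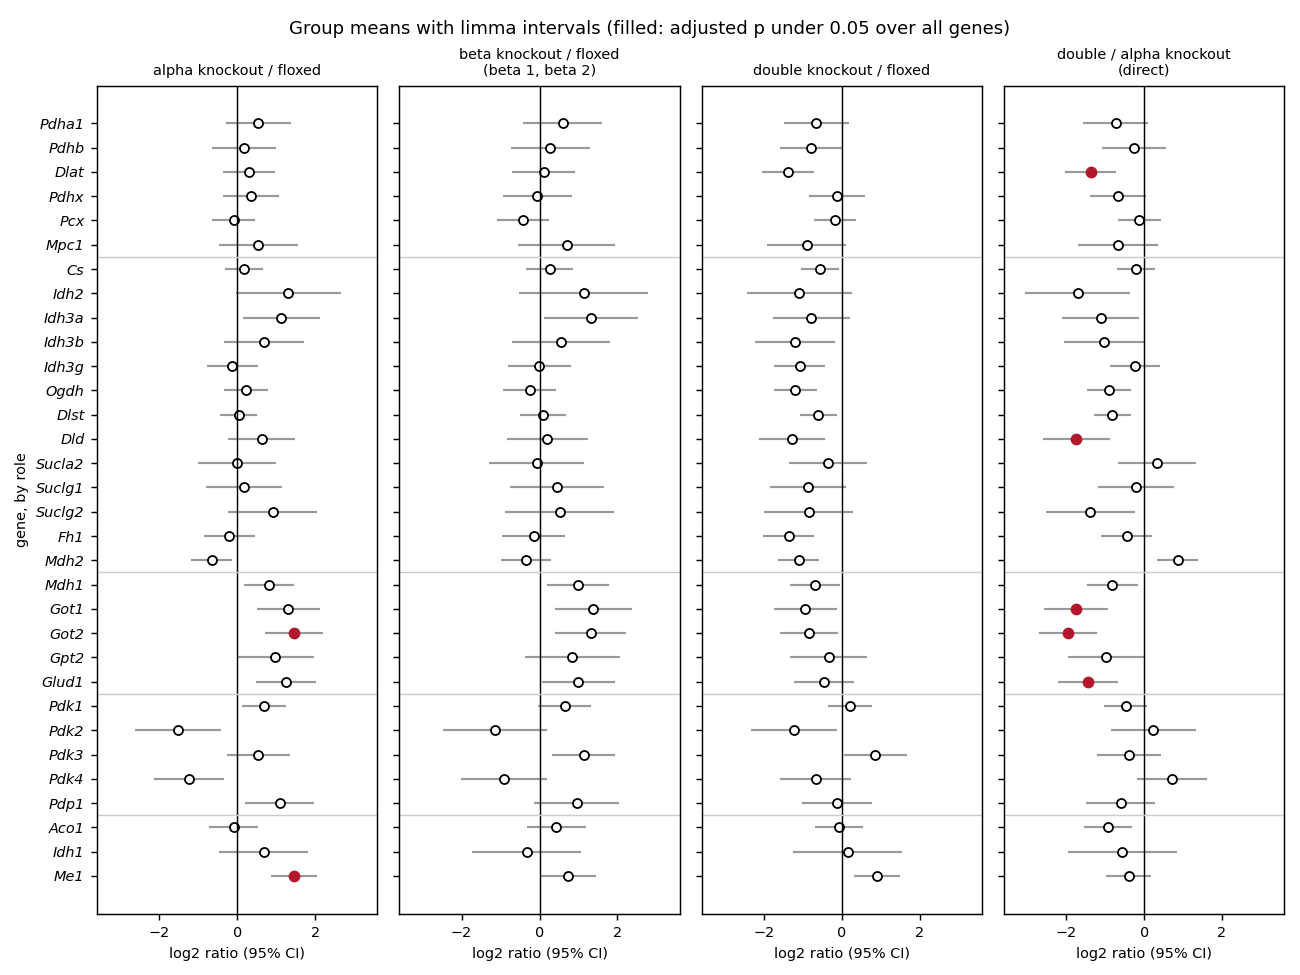
Group mean log2 ratio of each gene with its 95% interval from limma, in 4 panels for alpha, beta (beta 1 and beta 2), double and direct arrays, with filled red points where the adjusted p over all genes was under 0.05. The filled points are Got2 and Me1 in the alpha panel and Dlat, Dld, Got1, Got2 and Glud1 in the direct panel.

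Pyruvate entry was below 0 for 6 of 6 measured genes on the double arrays (median -0.72) and on the direct arrays (median -0.67), and 1 of them passed on the direct arrays. Dlat, the acetyltransferase core (E2) of the pyruvate dehydrogenase complex, was at -1.22, -0.99 and -1.92 on the direct arrays. It was at -0.76, -1.50 and -1.90 on the double arrays. On the alpha arrays it was at 0.66, -0.20 and 0.42, and on the beta arrays at 0.28, -0.08 and, for beta 3, -4.74. Every double value was below every alpha value and below beta 1 and beta 2. The direct values, which have another reference, were all below 0. How many of all genes had alpha and double values without overlap was not counted, here or for the genes below. Dlat fell 2.60-fold on the direct arrays (log2 -1.38, 95% interval -2.04 to -0.71, adjusted p = 0.0286). On the double arrays its mean was -1.39 (-2.05 to -0.72), which did not pass (adjusted p = 0.0896), and it passed there with dim ratios left out (adjusted p = 0.0143).

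Dld, the E3 subunit of this complex, is described with the cycle, and the remaining subunits did not pass in any comparison. Pdha1, the E1 alpha subunit that the kinases phosphorylate, had a mean of -0.66 on the double and -0.74 on the direct arrays. Pdhb, the E1 beta subunit, was at -0.78 and -0.25, and Pdhx, which ties the E3 enzyme to the core, at -0.13 and -0.68. Double 1 was above 0 for each of these 3 genes, and double 2 and double 3 were below. Mpc1, a subunit of the mitochondrial pyruvate carrier, had double values of 0.08, -0.69 and -2.10 and direct values of -0.46, 0.16 and -1.71, which cross 0 in both groups. Pcx, pyruvate carboxylase, which refills the cycle with oxaloacetate, had group means from -0.42 on the beta to -0.09 on the alpha arrays.

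In the cycle itself, 13 of 13 genes had a mean below 0 on the double arrays, with a median of -1.09 and a range from -1.36 to -0.36. On the alpha arrays 9 of 13 were above 0 (median 0.18) and on the beta arrays 8 of 13 (median 0.20). On the direct arrays 11 of 13 were below 0 (median -0.82), and 1 of them, Dld, passed. Cs, citrate synthase, which joins acetyl-CoA to oxaloacetate, was at -0.27, -0.62 and -0.80 on the double arrays and between -0.07 and 0.34 on the alpha arrays, with no overlap. Its double mean of -0.56 did not pass (95% interval -1.05 to -0.08, adjusted p = 0.318).

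Of the isocitrate dehydrogenase genes, Idh2 and Idh3a were above 0 on every alpha array. Idh2 was at 1.19, 1.47 and 1.26 on the alpha arrays, at 0.54, -0.42 and -3.39 on the double arrays and at -1.67, -1.10 and -2.34 on the direct arrays. The alpha values lay close together and the double values far apart, so the double mean of -1.09 ± 2.05 (SD, n = 3) is within its own spread. Idh3a was at 1.71, 0.78 and 0.92 on the alpha arrays and at 0.28, -0.77 and -1.88 on the double arrays, which do not overlap. Idh3b and Idh3g, the other subunits of the NAD-dependent enzyme, had double means of -1.21 and -1.09 and alpha means of 0.68 and -0.13. None of these 4 genes passed over all genes (adjusted p from 0.157 to 0.502 on the double arrays).

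The 2-oxoglutarate dehydrogenase complex held the gene of the cycle that passed. Dld, the lipoamide dehydrogenase (E3) shared by the complexes for pyruvate, 2-oxoglutarate and branched-chain ketoacids, was at -1.23, -1.63 and -2.36 on the direct arrays. It was at -1.01, -1.42 and -1.43 on the double arrays, at 1.36, -0.13 and 0.65 on the alpha arrays, and at 1.06, -0.67 and, for beta 3, -1.92 on the beta arrays. The double values were below all alpha values and below beta 1 and beta 2, and the direct values, with another reference, were all below 0. Dld fell 3.34-fold on the direct arrays (log2 -1.74, 95% interval -2.59 to -0.89, adjusted p = 0.0302). Of its 3 probes, 1 had a ratio on direct 2 alone (-3.10), and the other 2 had direct means of -1.50 and -1.49. On the double arrays the 3 probes had means of -0.61, -1.98 and -1.28, and on double 3 they were at 1.01, -2.83 and -2.47. The double values of Dld thus average probes that differ.

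Ogdh was at -1.62, -0.74 and -1.23 on the double arrays and at -0.90, -1.08 and -0.72 on the direct arrays. The double values were below the alpha values of -0.15, 0.27 and 0.55. Its means were -1.20 and -0.90 (adjusted p = 0.0855 and 0.061). Dlst, the succinyltransferase (E2) of the same complex, had smaller means of -0.60 and -0.82, with an adjusted p of 0.0519 on the direct arrays. Both genes had means near 0 in the alpha group, at 0.22 for Ogdh and 0.04 for Dlst.

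Succinyl-CoA ligase, which makes a nucleoside triphosphate in the cycle, did not pass in any comparison. Suclg1, its alpha subunit, had a double mean of -0.86 and a direct mean of -0.22. Suclg2, the GTP-specific beta subunit, was at -0.85 and -1.38, and Sucla2, the ATP-specific beta subunit, at -0.36 and 0.32. The 3 subunits thus lay on both sides of 0 on the direct arrays.

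The last enzymes of the cycle parted on the direct arrays. Fh1, fumarase, was at -0.76, -1.44 and -1.88 on the double arrays, below the alpha range of -0.60 to 0.13, with a mean of -1.36 (adjusted p = 0.0896). Its direct mean was -0.45. Mdh2, the mitochondrial malate dehydrogenase, was at -1.27, -0.86 and -1.18 on the double arrays and at -0.45, -1.09 and -0.41 on the alpha arrays, which overlap. On the direct arrays it was at 0.75, 1.00 and 0.85, above 0 on all 3, in contrast to most genes of the cycle. The direct mean of 0.87 did not pass (adjusted p = 0.058), and it passed with dim ratios left out (0.97, adjusted p = 0.0197). The same contrast through the floxed RNA gave -0.45 (95% interval -1.20 to 0.29), so both routes to the double against the alpha knockout differ in sign for Mdh2.

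The transaminases and the shuttle enzymes were the group with the highest values in the single knockouts and the lowest on the direct arrays. All 5 had means above 0 in the alpha group (median 1.25) and in the beta group (median 0.99). All 5 had means below 0 in the double group (median -0.69) and on the direct arrays (median -1.44). Of the 5, Got2 passed upward in the alpha comparison, and Got1, Got2 and Glud1 passed downward on the direct arrays. Against the promoters printed above, Got1 held the receptor core and Got2 held neither motif.

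Got2, which makes aspartate in the matrix for the shuttle, was at 1.72, 1.33 and 1.31 on the alpha arrays. It was at 1.22, 1.40 and, for beta 3, -1.86 on the beta arrays. On the double arrays it was at 0.14, -0.88 and -1.76, and on the direct arrays at -1.47, -2.05 and -2.34. The alpha values and those of beta 1 and beta 2 were all above the double values, and the direct values were all below 0. Got2 rose 2.74-fold on the alpha arrays (log2 1.45, 95% interval 0.71 to 2.20, adjusted p = 0.0319). It fell 3.88-fold on the direct arrays (log2 -1.96, -2.70 to -1.21, adjusted p = 0.0151). Its double mean of -0.83 did not pass (adjusted p = 0.337).

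Got1 was at 1.89, 0.92 and 1.14 on the alpha arrays and at 1.80, 0.96 and, for beta 3, -2.64 on the beta arrays. It was at 0.06, -1.21 and -1.66 on the double arrays and at -1.53, -1.38 and -2.34 on the direct arrays. As for Got2, every double value was below every alpha value. Got1 fell 3.37-fold on the direct arrays (log2 -1.75, 95% interval -2.57 to -0.94, adjusted p = 0.0252). Its alpha mean of 1.32 did not pass (adjusted p = 0.0551), and it passed with dim ratios left out (adjusted p = 0.0271) and with the replicate block (adjusted p = 0.0211). Centred on bright genes the alpha mean of Got1 was 0.91 and did not pass (adjusted p = 0.0533), nor did it with beta 3 kept (adjusted p = 0.390). On direct 3, Got1, Got2 and Idh2 share 1 value, since low ratios there were deposited in coarse steps.

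Glud1, glutamate dehydrogenase, which feeds 2-oxoglutarate from glutamate, was at 1.40, 0.92 and 1.43 on the alpha arrays and at 1.08, 0.90 and, for beta 3, -2.53 on the beta arrays. It was at 0.37, -0.41 and -1.31 on the double arrays and at -1.17, -0.94 and -2.22 on the direct arrays. The order of the groups was that of Got1 and Got2, with no overlap of the alpha and double values. Glud1 fell 2.72-fold on the direct arrays (log2 -1.44, 95% interval -2.21 to -0.68, adjusted p = 0.0377). Its alpha mean of 1.25 did not pass (adjusted p = 0.0534), and it passed with dim ratios left out (adjusted p = 0.0302) and with the replicate block (adjusted p = 0.0337). Centred on bright genes the alpha mean of Glud1 was 0.85 and did not pass (adjusted p = 0.0591), nor did it with beta 3 kept (adjusted p = 0.366). Gpt2, the mitochondrial alanine aminotransferase, and Mdh1, the cytosolic malate dehydrogenase of the shuttle, did not pass. Gpt2 had means of 0.98, 0.84, -0.34 and -0.97, and Mdh1 of 0.81, 0.98, -0.69 and -0.82, in the alpha, beta, double and direct groups.

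The kinases and the phosphatase of pyruvate dehydrogenase did not move as 1 group, and none of the 5 measured genes passed in any comparison, although Pdk2 and Pdk4 did in the alpha comparison under other settings. On the double arrays 3 of 5 were below 0 (median -0.13). Pdk2, a kinase abundant in muscle, was at -2.27, -0.79 and -1.52 on the alpha arrays and at -2.74, -0.94 and 0.01 on the double arrays. Pdk4, the kinase known to rise in fasting, was at -1.52, -1.70 and -0.53 on the alpha arrays and at -0.81, -0.66 and -0.56 on the double arrays. Their alpha means of -1.53 and -1.25 went opposite to most of the list (adjusted p = 0.0847 and 0.0848). Pdk2 passed with dim ratios left out (adjusted p = 0.0336) and with the replicate block (adjusted p = 0.0276). It did not pass when centred on bright genes (adjusted p = 0.0934) or with beta 3 kept (adjusted p = 0.242). On the direct arrays Pdk4 was at 1.14, 1.47 and -0.50, on both sides of 0.

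Pdk1, a kinase also controlled by oxygen supply, was above 0 on 2 of 3 double arrays, at 0.57, 0.17 and -0.11, and had an alpha mean of 0.69. Pdk3 had a value on only 2 arrays each of the alpha, double and direct groups, and its double mean was 0.86. Pdp1, the calcium-stimulated phosphatase that switches the complex on, had means of 1.09, 0.96, -0.13 and -0.60 in the alpha, beta, double and direct groups, and none passed.

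Among the 3 cytosolic enzymes was Me1, which makes NADPH and pyruvate from malate. Me1 was the 1 gene, of 30 with all values, above 0 on every double array (3.33%, against 13.35% of all genes). It was at 1.90, 1.30 and 1.19 on the alpha arrays, and at 0.95, 0.50 and, for beta 3, -1.92 on the beta arrays. It was at 1.14, 1.06 and 0.50 on the double arrays and at -0.69, 0.07 and -0.58 on the direct arrays. Me1 thus stayed above 0 in all 3 knockouts except on beta 3, and the alpha values were above the double values. It rose 2.76-fold on the alpha arrays (log2 1.46, 95% interval 0.88 to 2.05, adjusted p = 0.0158). Its double mean of 0.90 did not pass (0.32 to 1.49, adjusted p = 0.182). Aco1, the cytosolic aconitase that also binds iron-responsive RNA elements, and Idh1, the cytosolic NADP-dependent isocitrate dehydrogenase, had double means of -0.07 and 0.15. Idh1 had no ratio on double 3, direct 3 and beta 3.

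Probes of a gene did not always go together. The 32 genes were read by 54 probes, 17 genes by more than 1, and for 6 of these the double means of the probes had both signs, as the direct means had for 5. The 2 probes of Dlat had double means of -1.39 and -1.38, and the 2 probes of Me1 0.90 and 0.90. The 3 probes of Pdhx ranged from -1.16 to 1.31 on the double arrays, and those of Dlst from -1.10 to -0.01. For Sucla2, the probe with values on 2 direct arrays was at 2.03, while the other 2 were at -0.28 and -0.01. The double means of Aco1, Mdh1, Pdhx, Pdk3, Pdp1 and Sucla2 thus average probes of opposite sign. So do the direct means of Cs, Pdhx, Pdk3, Pdp1 and Sucla2.

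**Figure D4:**
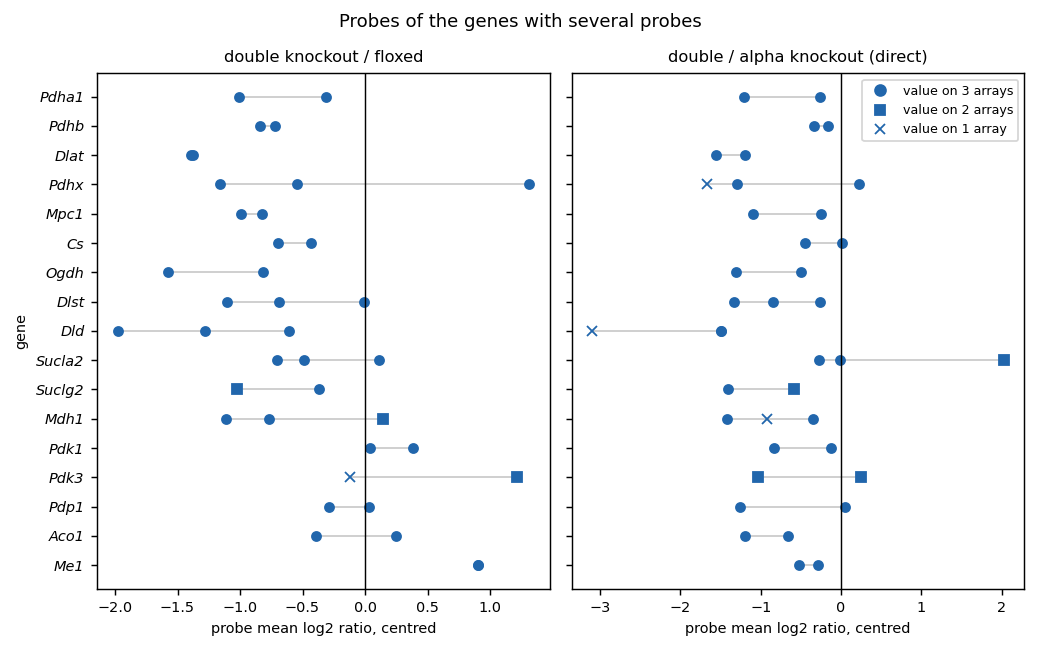
Mean centred log2 ratio of each probe of the 17 genes with several probes, on the double (left) and direct (right) arrays, joined by a line per gene; circles, squares and crosses mark probes with values on 3, 2 and 1 arrays. The Dlat probes lie together below 0, while the Pdhx probes span -1.16 to 1.31 on the double arrays.

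Most of the genes varied together across arrays. Over the 11 arrays of the fit, the median Pearson r between pairs of the 30 genes with all values was 0.66 over 435 pairs, and 80.2% of pairs were above 0. The points share arrays, references and centring, so this is a description without a test. Pdk2 (median r with the others -0.71), Pdk4 (-0.33) and Mdh2 (-0.20) ran against the rest, and Pcx was at -0.02.

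A list of 38 neighbouring genes, which feed or drain the cycle and were not on the list above, had 34 tested members. On the alpha arrays 5 of the 34 rose, where 5.59% of all genes did, and none fell. They were Sdhc, a membrane anchor of succinate dehydrogenase (1.79), Nnt, the transhydrogenase (1.59), Lipt1, a lipoyltransferase (1.54), Sdhaf1, an assembly factor (0.98), and Pkm, pyruvate kinase (0.92). On the direct arrays 4 fell, where 4.15% of all genes did, and none rose: Sdhb, the iron-sulfur subunit (-2.48), Sdhc (-1.98), Sdhd, the other anchor (-1.45), and Gpt, the cytosolic alanine aminotransferase (-1.15). In limma none passed in the beta or the double comparison, where 7 and 1 were higher at an unadjusted p under 0.05, against 8.28% and 5.54% of all genes, and 0 and 8 were lower, against 7.27% of all genes in the double comparison.

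The authors' deposited table of lower genes, limited to a mean ratio of 0.7 or less, held 33 of the 54 probes (61.1%), against 23.5% of all probes, and in 31 of them the double group was at 0.7 or less. In the authors' deposited table Dlat had double mean ratios of 0.37 and 0.36, Fh1 0.37, Ogdh 0.57 and 0.36, and Mdh2 0.46. The authors' deposited table of higher genes held 12 of the 54 probes (22.2%, against 14.6% of all probes), all 12 with an alpha mean of 2 or more and none with a double mean that high. Got1 stands in both, since the authors' deposited table gives it 2.36 in the alpha, 2.24 in the beta and 0.52 in the double group. These means are of the same arrays as above, uncentred, and add no independent arrays.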

How the data were processed

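RNA of gastrocnemius muscle was measured on 12 Agilent arrays of 2 dyes. The deposited value table gives each probe a linear ratio of its dyes on each array, with Cy5 divided by Cy3 per the labels; from its values, it is background-subtracted, scaled by 1 factor per array, and neither on a log scale nor centred, although the design had taken log ratios. No label or header gives the other upstream steps. The authors' deposited tables of lower and higher genes hold mean ratios against floxed muscle, limited to 0.7 or less and 2 or more per the labels.

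Ratios of 0 or below and the repeated maximum of each array were undefined. Log2 was taken of the others, probes of a gene were averaged and each array was centred on its median gene. Of 40928 probes, 32443 had 1 gene symbol, 44 several and 8441 none. Genes measured on 2 or more arrays in each title group were tested (16526), on 11 arrays without beta 3. limma 3.58.1 in R 4.3.3 (lmFit, eBayes, 1 shared spread) tested 6 comparisons, two-sided, with Benjamini-Hochberg adjustment over all genes at 0.05; every adjusted p in the text comes from it, and intervals are at 95%. Tables were made with Python 3.11.15 and pandas 2.3.3. A ratio was dim where, divided by the array's factor, it was a fraction of whole numbers no larger than 10, within 0.0006 (a fraction of 1, as saturated spots would give, falls under this too), and a bright gene had no dim or undefined probe on any array.

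Every gene of the list is accounted for; those past the threshold are given on every array, and neighbouring genes past it are named, up to 6 per comparison. Genes, lists and settings were chosen with earlier results of these data known. In data simulated on these genes, shifts of log2 2 were recovered for 92%, 48%, 84% and 87% of genes in the alpha, beta, double and direct comparisons, and shifts of log2 1 for 10%, 0%, 20% and 9%; genes without a shift made up 0 of 102, 0 of 48, 35 of 139 and 6 of 102 calls, so that double calls are less certain than the threshold says. Depth has no meaning for arrays; their number limits the precision. Alternatives covered centring, dim ratios, probe averaging, grouping, spread, weights, a dye term, the replicate block and each array left out. For the replicate numbers of the titles, deviations of same-numbered alpha and double arrays correlated at 0.43, 0.14 and 0.14 over 13687 genes. Those of differently numbered alpha and double arrays ranged from -0.38 (alpha 2 with double 1) to 0.27 (alpha 2 with double 3). Same-numbered alpha and direct arrays were at 0.07, -0.30 and 0.02. These values do not settle whether the numbers pair the arrays.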

Additional observations from a re-analysis of the deposited data

How the results depend on the processing

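Of the 7 calls of single genes, none changed direction under the 23 alternatives; each lost the threshold in 6 to 13 of them. The median of the genes kept its sign for the alpha, double, direct and double minus alpha comparisons. It turned for the beta arrays with beta 3 kept (-0.51) and by channel labels (-0.19), and for the double minus the beta group with beta 3 kept (0.035), where channel labels gave -0.17. Centring on bright genes moved the alpha median to 0.13. The direct median was -1.19 without centring and -1.09 with a dye term.

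The alpha count of 2 became 0 with beta 3 kept, without centring or with a dye term, 4 when centred on bright genes or with a value on all arrays, 5 from the alpha arrays alone, 6 with dim ratios left out, 7 among bright genes alone and 13 with array weights. The direct count of 5 became 0 with beta 3 kept, by channel labels, from the direct arrays alone or with a dye term, and 8 with dim ratios left out or with a value on all arrays. The double count of 0 became 3 when centred on bright genes, 4 with dim ratios left out and 9 among bright genes alone. The beta count of 0 became 2 with array weights and 1 among bright genes alone. For double minus alpha, 0 became 2 with array weights and 4 among bright genes alone, and for double minus beta 2 among bright genes alone. The bright-gene setting tests fewer genes and was chosen after seeing the data, and the other causes were not tested. The share of all genes called also changed: for alpha it was 7.81%, 0.100% with beta 3 kept and 12.4% with the replicate block. The counts here and below are not set against that share and are no result about the list.

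With 1 array left out, the alpha count ranged from 0 to 6 and the direct count from 0 to 7, while the other counts stayed at 0. The medians ranged from 0.27 to 0.54 (alpha), 0.02 to 0.85 (beta), -1.03 to -0.37 (double), -0.88 to -0.52 (direct), -1.45 to -0.77 (double minus alpha) and -1.57 to -0.65 (double minus beta). With the replicate block, 5 genes passed in the alpha comparison (Got1, Got2, Me1 and Glud1 higher, Pdk2 lower) and 7 lower on the direct arrays (Ogdh, Dlst, Dld, Got1, Got2, Dlat and Glud1). The double minus alpha comparison had no call with or without the block, and the block changed no other count. Ratios called dim, whose signals the deposited values do not give, limit the genes outside the 17 bright ones.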

Other observations

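Beta 3, left out of the fit, had 28 of 31 measured genes of the list below its median gene, with a median of -2.40 and a lowest value of -4.74 for Dlat. Its bright genes were also low, with a median of -2.19. Only Idh2 (0.95), Ogdh (0.81) and Pdk2 (0.74) were above 0 there.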
